A study of Arabidopsis thaliana with 4 samples.

Results

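Nucleotide synthesis genes were followed in seeds of Arabidopsis thaliana kept in the cold or in the warm. The genes were taken from a list of 34 loci that encode enzymes of de novo purine and pyrimidine synthesis, with IMP dehydrogenases, CTP synthases, synthetases of phosphoribosyl pyrophosphate (PRPP) and a few kinase and salvage enzymes. A gene was measured where the platform annotation pairs a probe set with that gene alone, which held for 12 of the 34 loci, out of 13286 genes measured in this way in the whole series. A further 3 loci are paired only with probe sets of several genes and 19 are not listed in the annotation used here, and these 22 were not analysed here. The measured genes cover all 3 loci of the guanine branch, 3 of 5 PRPP synthetases, 2 of 10 loci of the path from PRPP to IMP, 1 of 6 of the path to UMP and 3 of 4 CTP synthases. None of the 3 loci of the adenine branch was measured, nor were the 2 phosphate transfer kinases or the 1 purine salvage enzyme of the list.

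The seeds were of the Ler-0 (Landsberg erecta) background. One group was held in darkness for 96 h at 4 °C and the other for 96 h at 22 °C, and each group had 2 arrays, named here A and B after their titles. Biotin-labelled targets from total RNA were read on Affymetrix arrays. The labelled stage is dry seeds in every sample, beside the incubation. Whether A and B were separate seed batches is not labelled, so the spread between them, and every p-value that rests on it, may be technical.

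Purines are built on PRPP, an activated ribose phosphate, through a chain of steps in the plastid that ends in IMP. IMP is then turned either into AMP, by the adenine branch, or into GMP, by the guanine branch, in which IMP dehydrogenase makes XMP and GMP synthase aminates it. Pyrimidines start from carbamoyl phosphate and aspartate, joined by aspartate transcarbamoylase, and lead through UMP and UTP to CTP, which CTP synthase makes. Dry seeds hold stored nucleotides and stored RNA, and imbibed seeds draw on salvage as well as on new synthesis.

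Seeds at 4 °C held more transcript of 1 of the 2 IMP dehydrogenase genes and of GMP synthase, the enzymes of both steps of the guanine branch. Signal was 20.6 times as high at 4 °C as at 22 °C for the IMP dehydrogenase gene AT1G79470 and 8.14 times for the GMP synthase gene AT1G63660, by the means of 2 arrays each. The size of the first is uncertain, as a 4 °C array was 8.88 to 64.6 times a 22 °C array. Neither gene passed when probe sets of low signal were tested too. The other IMP dehydrogenase gene, AT1G16350, did not pass the test. No other nucleotide synthesis gene passed. A PRPP synthetase gene, the gene of the last steps to IMP and the aspartate transcarbamoylase gene had about 3 times the signal at 4 °C. Both their 4 °C arrays were above both 22 °C arrays, as was so for 25.7% of all probe sets tested. The list of genes was chosen with earlier results of these data known, so counts within it carry no test.

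Signals are the authors' MAS5 signals, scaled so that the trimmed mean of every array was 500. The test was limma on log2(signal + 32) over the 15847 probe sets with a mean signal of at least 64, with Benjamini-Hochberg adjustment over all of them and a threshold of 0.05. Fold changes are 4 °C minus 22 °C on that log2 scale, which understates the change of low signals. No seeds from before the incubation were measured, so a rise at 4 °C and a fall at 22 °C cannot be told apart. Their median over all probe sets tested was -0.13, against 0.03 after quantile normalization or median centring. Replicates were less alike at 22 °C than at 4 °C: the SD of the log2 difference between the arrays of a pair was 0.646 at 4 °C and 1.1 at 22 °C. As bulk seed RNA was measured, fewer cells of a type and less RNA per cell cannot be told apart. The one seed marker measured, the late embryogenesis gene M10, was high on every array, with 14071 and 15986 at 4 °C against 13531 and 10788 at 22 °C.

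**Figure D1:**
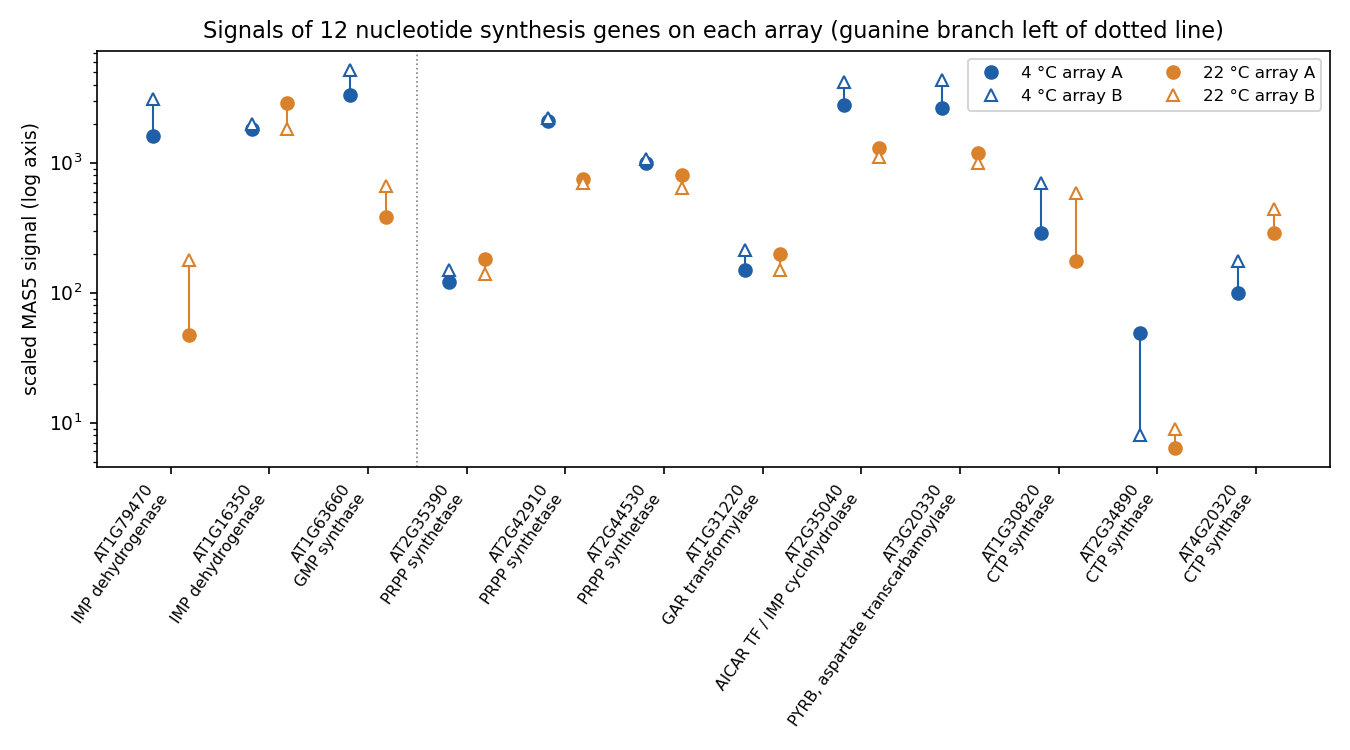
Scaled MAS5 signal, on a log axis, of the 12 nucleotide synthesis genes measured, with 4 °C arrays left of 22 °C arrays for each gene, filled circles for array A, open triangles for array B and a line joining the arrays of a pair. AT1G79470 and AT1G63660, left of the dotted line with the rest of the guanine branch, had 4 °C signals of at least 1593 and 3321 against 22 °C signals of at most 179 and 666.

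Of the 12 genes measured, 11 passed the filter on low signal, and each of the 11 had a mean signal of at least 64 at 22 °C as well. AT2G34890, which encodes a CTP synthase, was left out by the filter, with signals of 49.4 and 8.08 at 4 °C (arrays A and B, an order kept below) against 6.39 and 8.96 at 22 °C. Among the 11 genes, 2 passed as higher at 4 °C, 0 as lower and 9 did not pass. The shares over all probe sets tested were 2.71% higher and 2.34% lower. An unadjusted p under 0.05 was reached by 5 genes higher at 4 °C and by 1 lower, AT4G20320, against 11.6% of all probe sets higher and 14% lower. Log2 fold changes were above 0 at 8 genes and below 0 at 3, with a median of 0.50. That median was 1.21 without 22 °C B, 1.01 without 4 °C A and 1.50 with a filter at 200. Both 4 °C arrays were above both 22 °C arrays at 6 of the 11 genes and below both at 1, and 4 genes overlapped. Over all probe sets tested these shares were 25.7% above and 31.4% below. The genes were listed with earlier results of these data known, so these counts are a description and carry no test.

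IMP dehydrogenase, which commits IMP to guanine nucleotides, is encoded by a pair of genes. AT1G79470 had signals of 1593 and 3073 at 4 °C against 47.5 and 179 at 22 °C. Both 4 °C arrays were far above both 22 °C arrays. The gene passed as higher at 4 °C, with a mean of 2333 ± 1046 at 4 °C and 114 ± 93.3 at 22 °C (SD, n = 2). Its log2 fold change was 4.11 ± 0.61 (SE; 95% interval 2.68 to 5.54, limma adjusted p = 0.0317). It had the 13th highest log2 fold change of the 15847 probe sets. The 22 °C A signal lay below the filter level of 64, and without detection calls it is not known to be above background. The size and rank of the difference are therefore uncertain. A 4 °C array was 8.88 to 64.6 times a 22 °C array, and the log2 fold change was 4.58 with a pseudocount of 0 and 3.51 with a pseudocount of 100.

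AT1G16350 encodes the other IMP dehydrogenase. It had signals of 1813 and 2001 at 4 °C against 2881 and 1832 at 22 °C. The temperatures overlapped, and the highest signal was that of 22 °C A. Its log2 fold change was -0.27 (95% interval -1.37 to 0.83, limma adjusted p = 0.772), an interval that holds a more than 2-fold lower level. The log2 fold change of AT1G79470 exceeded that of AT1G16350 by 4.38. An exact two-sided permutation test of it over the 4 arrays gave p = 0.333, the smallest that 2 arrays against 2 allow.

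GMP synthase, which makes GMP from XMP with glutamine as the nitrogen donor, is encoded by AT1G63660. Its signals were 3321 and 5203 at 4 °C and 382 and 666 at 22 °C, again with no overlap. The gene passed as higher at 4 °C, with a mean of 4262 ± 1331 at 4 °C and 524 ± 201 at 22 °C (SD, n = 2). Its log2 fold change was 2.96 ± 0.51 (SE; 95% interval 1.77 to 4.16, limma adjusted p = 0.0353). It ranked 117 of 15847 by log2 fold change. A 4 °C array was 4.99 to 13.6 times a 22 °C array, depending on which arrays were set against each other. The calls of AT1G79470 and AT1G63660 were both lost without 4 °C A (adjusted p = 0.150 and 0.198) or without 4 °C B (0.200 and 0.252), when the spread came only from the 22 °C pair, and with no filter on low signal (0.0657 for both). Their log2 fold changes then stayed at or above 3.65 and 2.64.

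**Figure D2:**
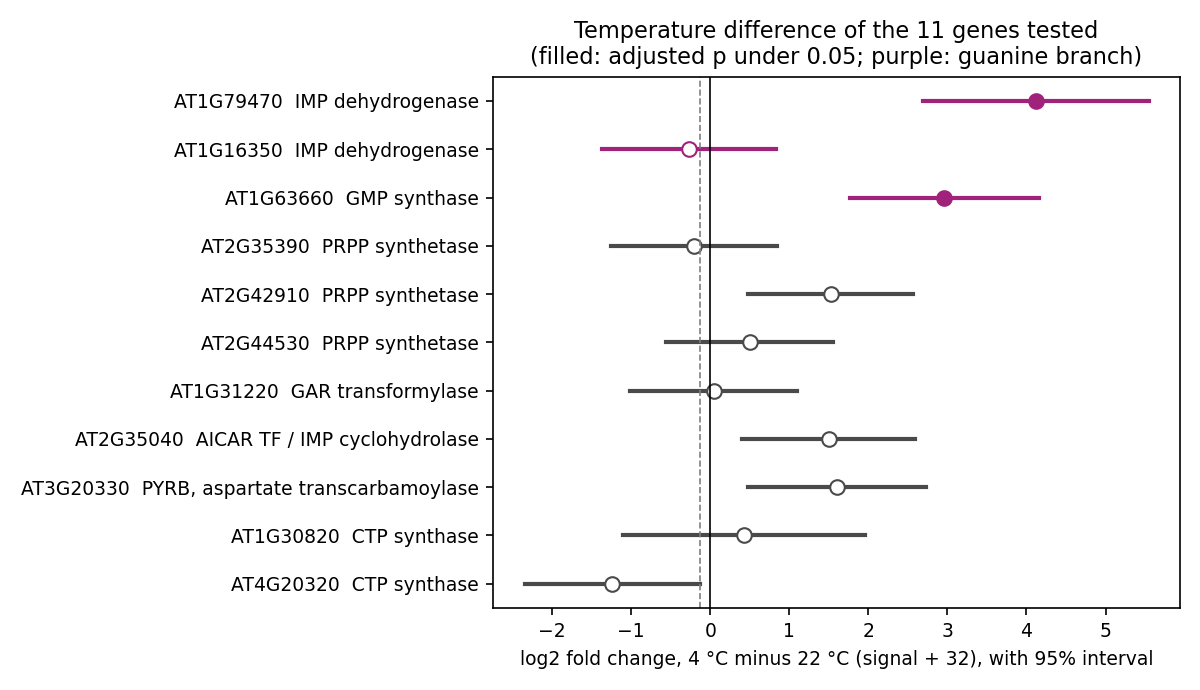
Log2 fold change, 4 °C minus 22 °C, of the 11 genes tested, with 95% limma intervals as lines, filled circles for an adjusted p under 0.05, purple for the guanine branch, a solid line at 0 and a dashed line at the median of all probe sets tested (-0.13). Filled are AT1G79470 at 4.11 and AT1G63660 at 2.96, while the interval of AT1G16350 spans 0.

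The guanine branch was set against the other 8 genes tested. Averaged over its 3 genes, log2(signal + 32) was 11.08 and 11.65 at 4 °C against 8.84 and 9.35 at 22 °C. Averaged over the other 8 genes it was 9.25 and 9.75 at 4 °C and 8.94 and 9.02 at 22 °C. Both averages were thus higher on both 4 °C arrays, but the median of the other 8 genes overlapped, with 9.16 and 9.80 at 4 °C against 8.96 and 9.34 at 22 °C. The mean log2 fold change was 2.27 in the guanine branch and 0.52 in the rest, 1.75 apart. Of the 3 guanine branch genes 2 passed the limma test, both higher at 4 °C, and of the other 8 genes 0 passed. Over all probe sets tested, 2.71% passed as higher and 2.34% as lower. Of the other 8 genes, 3 higher at 4 °C and 1 lower had an unadjusted p under 0.05. Over all probe sets tested these shares were 11.6% and 14%. The branch was not uniform: AT1G79470 and AT1G63660 lay 3.60 and 2.44 above the mean of the rest and AT1G16350 lay 0.79 below it. Without AT1G79470 the branch was 0.83 above the rest. The branch was singled out with the higher 4 °C signal of AT1G79470 already known, so its mean is given as a description and carries no test.

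**Figure D3:**
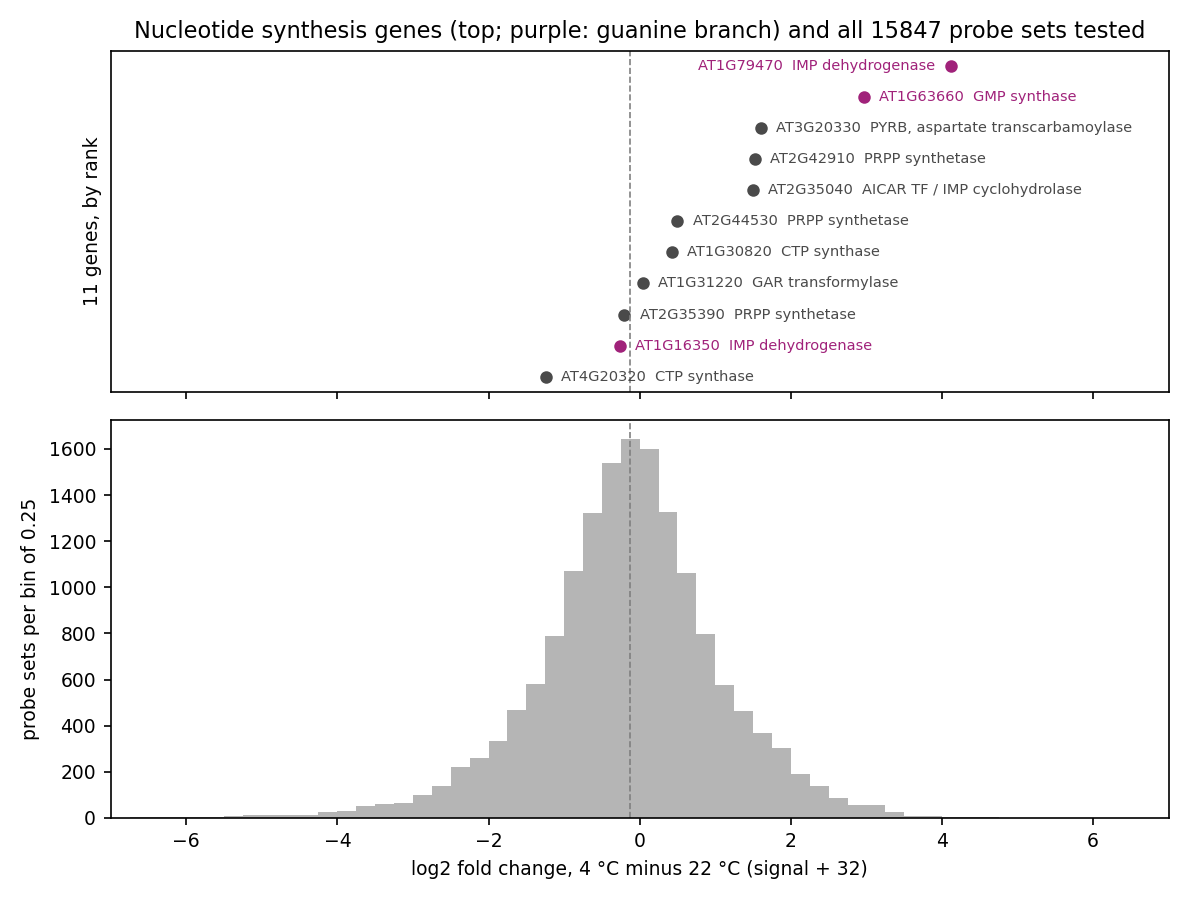
The upper panel shows the log2 fold change (4 °C minus 22 °C, horizontal axis) of the 11 genes in rank order, purple for the guanine branch, and the lower panel the number of probe sets per bin of 0.25 for all 15847 probe sets tested, with a dashed line at their median of -0.13. AT1G79470 and AT1G63660 lie in the far right tail, 3 genes lie between 1.50 and 1.60, and the other 6 lie between -1.24 and 0.50.

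PRPP synthetases supply the ribose phosphate that purine and pyrimidine synthesis, salvage and histidine and tryptophan synthesis share. AT2G42910 had signals of 2082 and 2193 at 4 °C against 744 and 701 at 22 °C. The temperatures did not overlap and the arrays of each pair were close. Its ratio of means was 2.96 and its log2 fold change 1.52 ± 0.45 (SE), which did not pass (limma adjusted p = 0.0877). With 1 array left out the log2 fold change ran from 1.48 to 1.57.

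The other PRPP synthetases measured differed less. AT2G44530 had 988 and 1067 at 4 °C and 799 and 642 at 22 °C, a ratio of means of 1.43 with no overlap (log2 fold change 0.50, limma adjusted p = 0.536). AT2G35390 had 121 and 149 at 4 °C and 181 and 139.6 at 22 °C, and the temperatures overlapped (log2 fold change -0.20, 0.11 after quantile normalization). Within this family the log2 fold changes ran from -0.20 to 1.52, and 0 of 3 genes passed.

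Of the path from PRPP to IMP, an early and the last enzyme were measured. AT2G35040 encodes the bifunctional enzyme of the last steps, AICAR transformylase and IMP cyclohydrolase, which yields the IMP that the guanine branch uses. Its signals were 2798 and 4183 at 4 °C and 1292 and 1101 at 22 °C, so that every 4 °C value was more than 2 times every 22 °C value. The ratio of means was 2.92 and the log2 fold change 1.50 ± 0.47 (SE), which did not pass (limma adjusted p = 0.102). With 1 array left out the log2 fold change ran from 1.21 to 1.78.

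AT1G31220 encodes glycinamide ribonucleotide transformylase, which adds an early formyl group to the purine ring. It had 149 and 214 at 4 °C and 198 and 149.8 at 22 °C. The temperatures overlapped almost completely, with a log2 fold change of 0.04 (95% interval -1.01 to 1.10, limma adjusted p = 0.969). Without 22 °C B or 4 °C B the value was -0.13 or -0.18.

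PYRB encodes aspartate transcarbamoylase, the first committed step of pyrimidine synthesis. Its signals were 2616 and 4323 at 4 °C and 1182 and 997 at 22 °C. Both 4 °C arrays were more than 2 times as high as either 22 °C array. The ratio of means was 3.18 and the log2 fold change 1.60 ± 0.48 (SE), which did not pass (limma adjusted p = 0.0933). With 1 array left out the log2 fold change ran from 1.24 to 1.96.

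The CTP synthases, which aminate UTP to CTP, had no member that passed. AT4G20320 had 99.5 and 175 at 4 °C and 289 and 440.0 at 22 °C. It was the one gene of the 11 with both 4 °C arrays below both 22 °C arrays, with a ratio of means of 0.376. Its log2 fold change was -1.24 ± 0.48 (SE), which did not pass (limma adjusted p = 0.155). With 1 array left out the value ran from -1.57 to -0.91. AT1G30820 had 290.3 and 694 at 4 °C and 177 and 587 at 22 °C, so the arrays of a pair differed by 2.39 times at 4 °C and 3.32 times at 22 °C. Array B was the higher of each pair, and the temperatures overlapped (log2 fold change 0.43, limma adjusted p = 0.733). Leaving out 1 array moved it from -0.36 without 22 °C A to 1.21 without 22 °C B.

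The arrays of a pair also differed in a common direction at 4 °C. For all 11 genes array B exceeded array A at 4 °C, by 1.05 to 2.39 times, while it did so at 22 °C for 4 of the 11. Over all probe sets tested, 53.3% were higher on B at 4 °C and 48.0% at 22 °C. The 4 genes higher on 22 °C B were AT1G79470, AT1G63660, AT1G30820 and AT4G20320. The part of these differences in the temperature results was not tested.

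**Figure D4:**
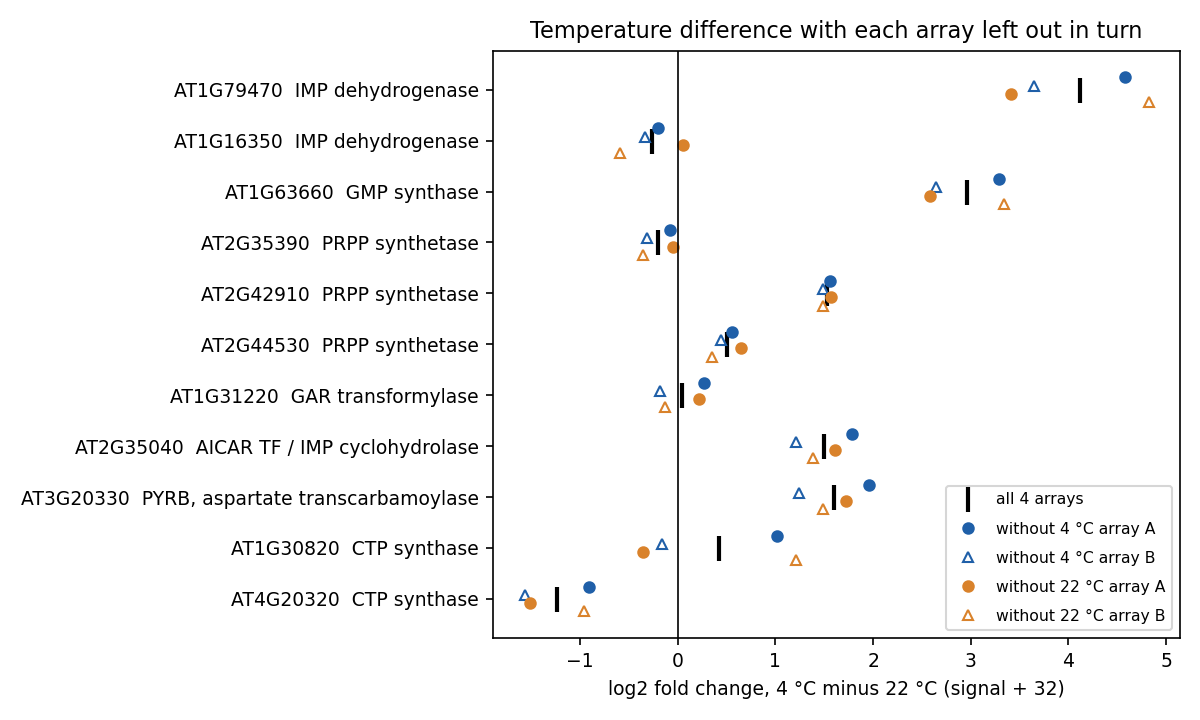
Log2 fold change, 4 °C minus 22 °C, of the 11 genes with all 4 arrays (black bars) and with each array left out in turn (blue for a 4 °C array, orange for a 22 °C array, circles for A, open triangles for B). AT1G79470 stays between 3.41 and 4.82 and AT1G63660 between 2.59 and 3.34, whereas AT1G31220, AT1G16350 and AT1G30820 cross 0.

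Other genes of nucleotide metabolism were taken from 5 further lists by function. A probe set of 1 gene alone was found for 15 of their 54 loci, and all 15 passed the filter on low signal. HGPT is a salvage gene whose hypoxanthine-guanine phosphoribosyltransferase makes IMP and GMP from free bases and PRPP. It passed as higher at 4 °C, and the other 14 did not pass. An unadjusted p under 0.05 was reached by HGPT and FAC1, higher at 4 °C, and by ALN, lower. The median log2 fold change of the 15 was 0.04. Both 4 °C arrays were above both 22 °C arrays at 6 of the 15 and below both at 3, against 25.7% and 31.4% of all probe sets tested. These lists too were chosen with earlier results of these data known.

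HGPT had signals of 750.3 and 557 at 4 °C against 93.5 and 93.8 at 22 °C. The 22 °C arrays were nearly equal and both 4 °C arrays were at least 5.94 times as high. Both 22 °C signals lay below the median signals of their arrays, 157 on A and 204 on B. Without detection calls they are not known to be above background, so the size of the difference is uncertain. Its ratio of means was 6.98 and its log2 fold change 2.43 ± 0.43 (SE; limma adjusted p = 0.0357). The call was lost with a pseudocount of 100 (adjusted p = 0.0537), with no filter (0.0720), without 4 °C A (0.303) and without 4 °C B (0.243).

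FAC1, the AMP deaminase that turns AMP into IMP, had 3966 and 6053 at 4 °C and 1274 and 1367 at 22 °C. Every 4 °C value was at least 2.90 times every 22 °C value, with a ratio of means of 3.79. Its log2 fold change of 1.87 ± 0.46 (SE) did not pass (limma adjusted p = 0.0603). A filter at 200 (limma adjusted p = 0.0474) and median centring (0.0463) made it pass. It did not pass with the other pseudocounts, with quantile normalization (0.0614) or with no filter (0.0928). With 1 array left out the log2 fold change ran from 1.56 to 2.17.

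Among the 8 nucleotide kinases measured, 0 passed, and log2 fold changes ran from -1.16 to 0.98. AT1G17410, of the nucleoside diphosphate kinase family, had the largest absolute value, with 266 and 183 at 4 °C and 792 and 357 at 22 °C (limma adjusted p = 0.214). With 1 array left out its log2 fold change ran from -1.70 to -0.62. The thymidylate synthase and dihydrofolate reductase gene AT2G21550, the deoxynucleotide gene measured, had 86.3 and 37.1 at 4 °C and 57.0 and 109 at 22 °C, with overlap. The CTP synthase gene AT4G02120, which was not among the 34 loci, had 116 and 149 at 4 °C and 53.4 and 291 at 22 °C, both 4 °C arrays lying between the 22 °C arrays.

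ALN, the allantoinase of purine breakdown, was picked out after its values were seen because it lay on the opposite side from FAC1. It had 569 and 292 at 4 °C and 924 and 2211 at 22 °C, with no overlap and a log2 fold change of -1.73 ± 0.59 (SE), which did not pass (limma adjusted p = 0.122). With 1 array left out the log2 fold change ran from -2.35 to -1.11.

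**Figure D5:**
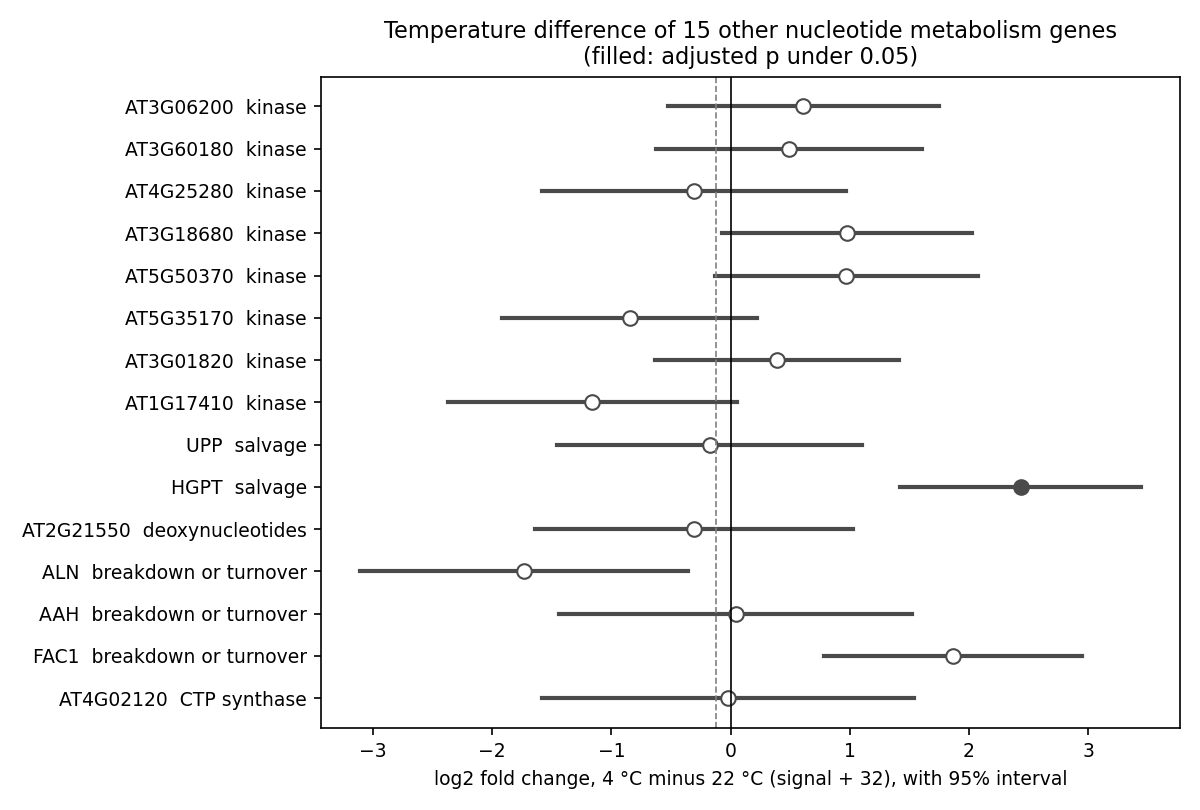
Log2 fold change, 4 °C minus 22 °C, of 15 other genes of nucleotide metabolism, with 95% limma intervals as lines, a filled circle for an adjusted p under 0.05, a solid line at 0 and a dashed line at the median of all probe sets tested. HGPT, at 2.43, is the one filled circle, and ALN, at -1.73, has the lowest value.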

How the data were processed

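The authors deposited 1 table of linear signal intensities for 22810 probe sets on 4 arrays, for which the submitters' processing notes name MAS5 without a version. How background was handled, the detection calls and the build used are not stated in the sources at hand. The values themselves show a 2% trimmed mean intensity of 100 for each array.

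Each array was scaled to a trimmed mean of 500, the 64 control probe sets were left out, and 15847 of 22746 probe sets with a mean signal of at least 64 were tested. limma 3.58.1 in R 4.3.3 fitted log2(signal + 32) with no covariate (lmFit, eBayes with trend), as tested on simulated data. There is no read depth here. The precision rests on the number of arrays, the spread between them and the spread of probe sets of like signal.

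Genes came from the platform annotation, through the RefSeq table of assembly TAIR10.1: 13513 probe sets had 1 gene, 503 several and 8730 were not listed, and 13436 of the first matched. No gene listed had more than 1 single-gene probe set, so the choice among them had no effect. Members, lists and role groups were chosen with earlier results of these data known. Array values are given for every nucleotide synthesis gene measured. From the lists they are given for genes past the threshold and for the gene with the largest absolute fold change of each list. The other genes of the lists are given in brief, and ALN was added afterwards. Alternatives were other pseudocounts, filters, normalizations and variance models, the replicate letter as a block, and each array left out.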

Additional observations from a re-analysis of the deposited data

How the results depend on the processing

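In all, 801 probe sets were called (430 higher, 371 lower). A pseudocount of 100 left 226, no filter left 2, and a filter at 200 gave 1266. Leaving out 1 array gave 1 to 4142 calls, a lone array being assumed to vary like the other pair. Without either 4 °C array the 1 call left was no nucleotide synthesis gene. AT1G79470 and AT1G63660 stayed the nucleotide synthesis genes called higher with other pseudocounts, a filter at 200, quantile normalization, median centring, no trend, robust estimation and without 22 °C B. With no filter 0 were called. Leaving out 1 array gave 0 to 5 higher and 0 to 1 lower. With the replicate block 4 were called higher, AT2G42910 (adjusted p = 0.0483) and PYRB (0.0409) joining, among 2879 probe sets in all, and ALN passed as lower (0.0397). No label makes A and B pairs, and the B minus A differences at 4 °C and 22 °C correlated across probe sets, which are not independent, with r = 0.209. The block also passed FAC1 (0.0162). The median over the 11 genes, 0.50, was 1.50 with a filter at 200, where 9 genes remained, and 0.45 to 1.21 with 1 array left out. The guanine branch was 1.75 above the rest, 1.50 with a pseudocount of 100 and 1.54 to 1.97 with 1 array left out. AT1G79470, AT1G63660 and HGPT, the nucleotide genes that passed, kept their sign under every alternative run. AT2G35390, at -0.20, was 0.11 after quantile normalization, and AT4G02120, at -0.02, was 0.0784 with a pseudocount of 0, 0.28 after quantile normalization and 0.14 with median centring. With 1 array left out, AT1G31220 ranged from -0.18 to 0.26, AT1G16350 from -0.59 to 0.0553, AT1G30820 from -0.36 to 1.21, AT2G21550 from -0.70 to 0.0796 and AT4G02120 from -0.98 to 0.94. The causes were not tested.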
